A study of Mus musculus with 3 samples.

Results

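SR proteins and hnRNPs are the main families of RNA-binding splicing regulators, and their mRNAs are described here in polysome gradients from mouse lymph node stromal cultures with and without siRNA against Eif4g3. Members were all probes whose gene name on the array starts with Sfrs, Srsf, Hnrp or Hnrnp, control spots excluded. They were 36 genes of 27745 gene names, carried by 83 of 41174 probes. All 36 could be matched to a present mouse symbol, 33 by accession and 3 by an older name. The array's own names are used below with the present symbol at first mention, so that Sfrs10 is Tra2b and Hnrpu is Hnrnpu. By protein group they were 8 classical SR proteins, 1 SR-like protein, 7 SR-related proteins and 20 hnRNPs.

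Cells of BALB/c mice received 400 pmol of Eif4g3 siRNA or, as the comparison, 400 pmol of control siRNA by lipofection, and were harvested at 48 h. Lysates pooled from 7 plates per siRNA were separated on a 10% to 60% sucrose gradient into a top fraction, light polysomes and heavy polysomes. Both RNAs of a fraction shared 1 two-colour array, Eif4g3 siRNA labelled with Cy5 (red) and control siRNA with Cy3 (green). The siRNA sequences and the sex and age of the mice are not given in the sources used here. With 1 array per fraction, no dye swap and 1 pool per siRNA, the data hold no replicate error and no test over samples, dye and siRNA cannot be told apart, and neither can array and fraction. Beside each ratio stands the scanner software's error for the spots, which does not cover variation between cultures. The RNA came from whole cultures, so fewer cells of a type and less RNA per cell cannot be told apart.

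SR proteins carry RNA recognition motifs and a domain rich in arginine and serine, and bind exonic enhancers to promote the use of nearby splice sites. The hnRNPs coat nascent transcripts, often act at silencer elements, and also bind mature mRNAs to affect their export, stability and translation. Many SR genes and several hnRNP genes regulate their own splicing through conserved exons that carry a stop codon. The siRNA target, Eif4g3, encodes eIF4GII, a scaffold that joins the cap-binding protein, the helicase eIF4A and the small ribosomal subunit. On a sucrose gradient, mRNAs with many ribosomes sediment furthest, and free or poorly loaded mRNAs stay near the top.

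Eif4g3 itself had a log2 siRNA over control ratio of -0.43 ± 0.16 in the top fraction, -1.06 ± 0.16 in light and -1.77 ± 0.19 in heavy polysomes. That is 2.09-fold lower in light and 3.41-fold lower in heavy polysomes. In the same order of fractions Eif4g2 was at -0.28 ± 0.11, -0.50 ± 0.11 and -0.31 ± 0.10, below control on every array. Eif4g1 was at -0.04 ± 0.25, 0.15 ± 0.15 and -0.38 ± 0.15. Of the 14 fibroblastic stromal markers on the array, 12 were measured on the top array and 13 on the heavy array, against 0 and 4 of 9 endothelial and 1 and 4 of 13 leukocyte markers. Of 12 epithelial, smooth muscle and pericyte markers 5 were measured on the top array and 7 on the heavy array, among them the contractile genes Cnn1 and Acta2. Probes well above background in both channels numbered 14339 (34.8%) for the top fraction, 20659 (50.2%) for light and 21248 (51.6%) for heavy polysomes.

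The mRNAs of the splicing regulators kept within 2-fold of control in every fraction. Of the 36 genes, 35 were measured on all 3 arrays, and Hnrpul2 (Hnrnpul2) was not well above background on any of them. None of the 35 was 2-fold higher or lower on any array. Over all measured genes the shares at 2-fold were 0.429% higher and 0.265% lower in the top fraction, 0.397% and 0.291% in light polysomes and 0.507% and 0.305% in heavy polysomes. A count of 0 of 35 is close to these shares.

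Medians of the 35 log2 ratios were 0.05 in the top fraction, 0.05 in light and -0.12 in heavy polysomes, against 0.00, 0.02 and -0.01 over all measured genes. With other settings the members' median lay between 0.04 and 0.16 in the top fraction and between -0.0013 and 0.24 in light polysomes. In the top fraction 22 of the 35 lay above 0 (62.9%, against 50.4% of all genes), and in heavy polysomes 13 did (37.1%, against 48.3%). Read against the spot error, 5 members were higher and 1 was lower by 2 or more errors in the top fraction, where 6.93% and 6.79% of all genes were. In light polysomes 6 were higher and 2 lower, with 10.8% and 8.37% of all genes. In heavy polysomes 4 were higher and 7 lower, with 9.58% and 12.8% of all genes. The error of a gene shrinks with the number of probes averaged and leaves out the spread between them. In heavy polysomes 23 of the 35 members had 2 or more measured probes, against 5080 of 14404 genes. Shares by spot errors, here and below, are therefore not a like background for the members.

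**Figure D1:**
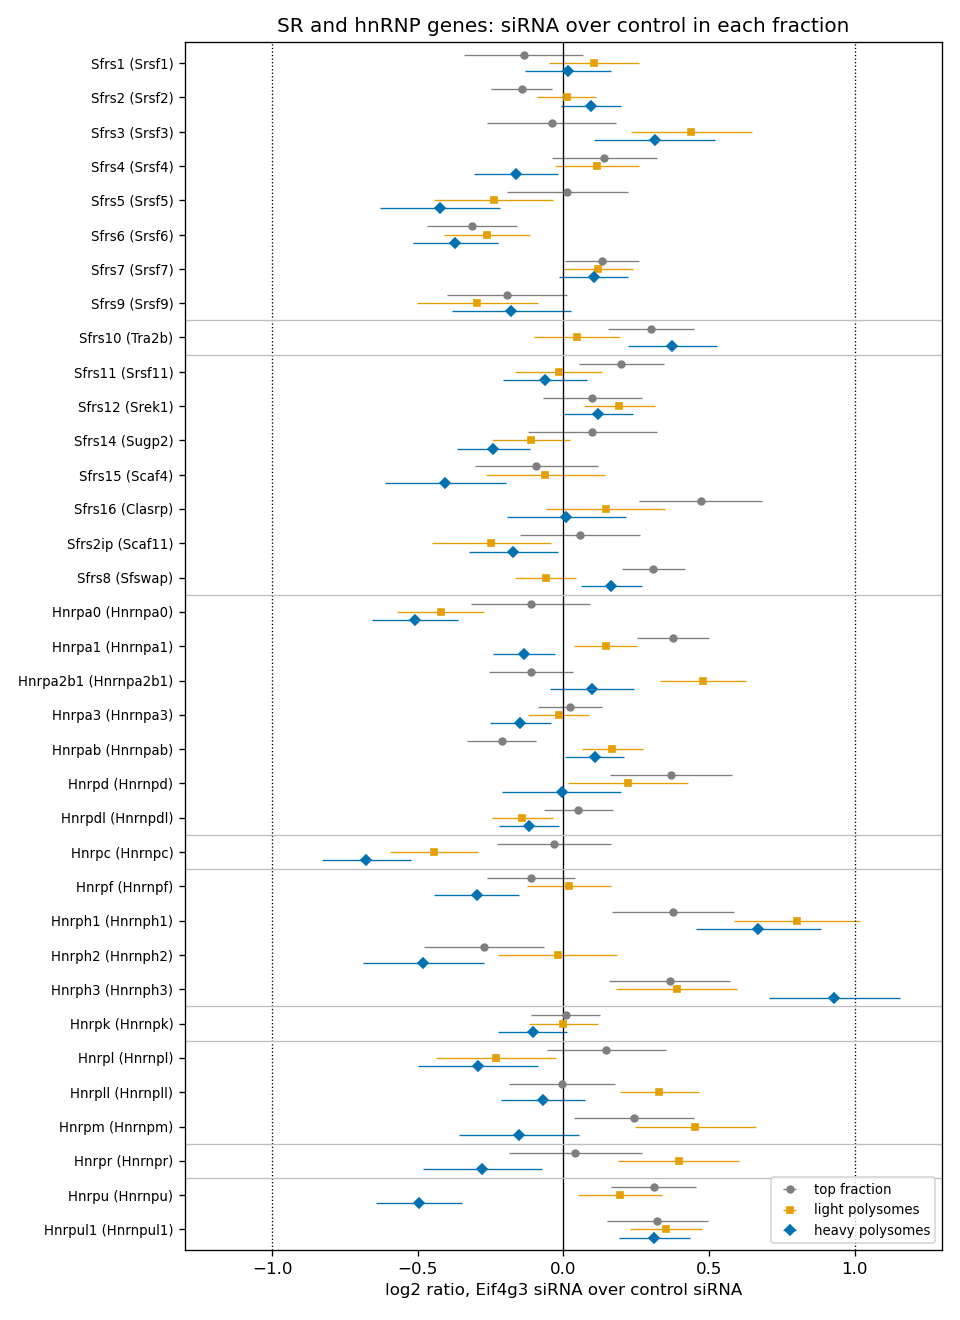
Log2 of the Eif4g3 siRNA signal over that of control siRNA (horizontal axis) for the 35 measured genes, grouped by protein family, with 1 marker per fraction (top, light polysomes, heavy polysomes) and the scanner software's spot error as bars. Dotted lines mark 2-fold, which no gene reached. Hnrph1 and Hnrph3 lie to the right of 0 in all fractions, and Hnrpc and Hnrpa0 lie furthest left in heavy polysomes.

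Annotated transcript starts of 5 members are shown because mRNAs that begin with a C followed by a run of pyrimidines, the 5′ terminal oligopyrimidine (TOP) mRNAs, are a known class whose translation is tightly controlled at the cap. The windows run from 5 bases before to 20 bases from the annotated start, on the transcript's strand, from RefSeq on GRCm38.p6. A start held the motif where a C at the first base was followed by at least 4 bases that are C or T. The run is then in capitals. Hnrpa0 and Sfrs5 held it, and Hnrpu, Hnrpc and Hnrph3, the members with the 2 lowest and the highest heavy minus top differences described below, did not.
Hnrpa0 (Hnrnpa0, chr13:58128537-58128561, minus strand): gcggcCTCTTTgtgtggtgtcccga
Sfrs5 (Srsf5, chr12:80945494-80945518, plus strand): cgtccCTTCCattttgtgcaacgtc
Hnrpu (Hnrnpu, chr1:178337796-178337820, minus strand): cgcctatattacgtgcgcggcgccg
Hnrpc (Hnrnpc, chr14:52104002-52104026, minus strand): gcggcagaggagctcgggggccatt
Hnrph3 (Hnrnph3, chr10:63023830-63023854, minus strand): gcggcgggagacggttgaggggagc

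A start was listed for 34 of the 36 members. Of these, 2 held the motif at an annotated start (5.88%), against 813 of 27025 genes (3.01%) and 14 of 64 ribosomal protein genes (21.9%), the textbook TOP mRNAs. Allowing the motif to begin up to 5 bases to either side gave 7 of 34 members (20.6%), 21.2% of all genes and 46.9% of ribosomal protein genes. Hnrpa0 and Sfrs5 had log2 ratios of -0.51 ± 0.15 and -0.42 ± 0.21 in heavy polysomes, and -0.11 ± 0.20 and 0.01 ± 0.21 in the top fraction. With other settings the top fraction value of Hnrpa0 lay between -0.435 and -0.11, and its heavy minus top difference between -0.58 and -0.10. Its contrast between the fractions thus depends on the processing, and Sfrs5 was not run under other settings. The starts are annotations and were not measured in these cells.

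Among the classical SR proteins the 8 genes were split in heavy polysomes, 4 above and 4 below 0. Sfrs6 (Srsf6), an enhancer-binding SR protein, and Sfrs9 (Srsf9) were the ones below control in every fraction. The signals of Sfrs6 were 493, 640 and 934 in top, light and heavy fractions of Eif4g3 siRNA cells, against 613, 768 and 1208 with control siRNA. The log2 ratios were -0.31 ± 0.15, -0.26 ± 0.15 and -0.37 ± 0.15. Its 2 probes gave similar values in the top fraction, -0.35 and -0.28, and different ones in light polysomes, 0.05 and -0.58, and in heavy polysomes, -0.14 and -0.60. Taken from the brightest probe alone, the light polysome value of Sfrs6 was thus not below control.

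Sfrs3 (Srsf3), the smallest SR protein and an adaptor for mRNA export, was on the other side. Its signals were 383, 522 and 626 in top, light and heavy fractions with Eif4g3 siRNA and 394, 385 and 504 with control siRNA. The ratios were -0.04 ± 0.22, 0.44 ± 0.21 and 0.31 ± 0.21, so both polysome fractions were higher and the top fraction was level. Sfrs5 had signals of 736, 620 and 593 with Eif4g3 siRNA against 729, 732 and 796 with control siRNA. From its 1 probe the ratios were 0.01 ± 0.21, -0.24 ± 0.21 and -0.42 ± 0.21. It was level in the top fraction, and of the lower values in polysomes only that in heavy polysomes was past 2 spot errors. Sfrs9 was at -0.19 ± 0.21, -0.30 ± 0.21 and -0.18 ± 0.20, within 2 spot errors each time. Sfrs1, Sfrs2, Sfrs4 and Sfrs7, which include the founding members of the family, had ratios between -0.16 and 0.14 in every fraction.

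The SR-like protein Tra2b (Sfrs10), which binds purine-rich exonic enhancers, had ratios of 0.30 ± 0.15, 0.05 ± 0.15 and 0.37 ± 0.15 over its 2 probes, which differed from each other and are described further down. The SR-related proteins carry arginine and serine rich stretches but are not all core splicing regulators. Sfrs16 (Clasrp), a partner of the SR protein kinase Clk4, had the highest top fraction ratio of all members. Its signals were 7754, 3677 and 3976 with Eif4g3 siRNA against 5595, 3327 and 3951 with control siRNA, giving 0.47 ± 0.21, 0.14 ± 0.20 and 0.01 ± 0.20. Sfrs15 (Scaf4), which binds the tail of RNA polymerase II, was at -0.41 ± 0.21 in heavy polysomes and at -0.09 ± 0.21 in the top fraction.

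The hnRNPs that were above control by at least 0.3 on all 3 arrays numbered 3 of 35 members, Hnrph1, Hnrph3 and Hnrpul1, against 1.9% of all genes. No member was at or below -0.3 on all 3 arrays, where 1.93% of all genes were. Hnrph1 and Hnrph3 belong to the F and H group, which binds runs of G. Hnrph1 (Hnrnph1) had signals of 1758, 2322 and 2774 in top, light and heavy fractions with Eif4g3 siRNA, against 1353, 1331 and 1746 with control siRNA. The ratios were 0.38 ± 0.21, 0.80 ± 0.22 and 0.67 ± 0.21, the highest being 1.74-fold.

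Hnrph3 had signals of 6207, 3687 and 3994 with Eif4g3 siRNA, against 4819, 2815 and 2096 with control siRNA. The ratios were 0.37 ± 0.21, 0.39 ± 0.21 and 0.93 ± 0.22, and the 1.91-fold value in heavy polysomes was the highest of any member in any fraction. With the scanner software's own ratio it reached 1.03, past 2-fold. Each of these genes had a single probe. The other members of the group did not follow them: Hnrpf (Hnrnpf) had -0.11 ± 0.15, 0.02 ± 0.14 and -0.30 ± 0.15, and Hnrph2 (Hnrnph2), which encodes a protein closely related to that of Hnrph1, had -0.27 ± 0.21, -0.02 ± 0.20 and -0.48 ± 0.21. Hnrph1 and Hnrph2 are close paralogs, and how far their probes cross-hybridise was not tested.

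Hnrpul1 (Hnrnpul1), related to hnRNP U and linked to mRNA export and DNA repair, had ratios of 0.32 ± 0.17, 0.35 ± 0.12 and 0.31 ± 0.12. Its most 3′ probe gave 0.55, 0.63 and 0.45. Another probe 15170 bases upstream gave 0.10, 0.05 and 0.36. A probe 4645 bases upstream was not measured in the top fraction and gave 0.38 in light and 0.13 in heavy polysomes, so the probes differed in every fraction.

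Below control in polysomes was Hnrpc (Hnrnpc), whose protein binds uridine-rich tracts of nascent RNA. Its signals were 336, 366 and 383 in top, light and heavy fractions with Eif4g3 siRNA, against 344, 498 and 613 with control siRNA. The siRNA channel was nearly flat over the fractions, and the control channel was highest in heavy polysomes. The ratios were -0.03 ± 0.20, -0.45 ± 0.15 and -0.68 ± 0.15, the last being the lowest of all members. With other settings they lay between -0.34 and 0.10 in the top fraction, -0.55 and -0.09 in light and -0.88 and -0.44 in heavy polysomes. The most 3′ of its 2 probes gave -0.16, -0.80 and -0.91, and the probe 10274 bases upstream gave 0.10, -0.09 and -0.44. With the scanner software's own ratio the most 3′ probe was at -0.82, -0.95 and -0.99, so it was then low in the top fraction too.

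Hnrpa0, which binds AU-rich elements, had the next lowest heavy polysome ratio. It had signals of 336, 308 and 401 with Eif4g3 siRNA, against 364, 412 and 571 with control siRNA, and ratios of -0.11 ± 0.20, -0.42 ± 0.15 and -0.51 ± 0.15. Both of its probes were below 0 on every array. Hnrpa1 (Hnrnpa1), the best studied splicing repressor of the family, had 0.38 ± 0.12 in the top fraction, 0.14 ± 0.11 in light and -0.14 ± 0.11 in heavy polysomes, the last being 0.10 when taken from the brightest probe. Hnrpa2b1 (Hnrnpa2b1), which also takes part in RNA transport, was highest in light polysomes, at -0.11 ± 0.14, 0.48 ± 0.15 and 0.10 ± 0.14. Hnrpab (Hnrnpab) had -0.21 ± 0.12, 0.17 ± 0.10 and 0.11 ± 0.10, with a ratio below 0 in the top fraction alone. Hnrpd (Hnrnpd), known as the AU-rich element factor AUF1, had 0.37 ± 0.21, 0.22 ± 0.21 and -0.01 ± 0.20. Hnrpm (Hnrnpm), of the L and M group, had 0.24 ± 0.21, 0.45 ± 0.21 and -0.15 ± 0.21 from 1 probe.

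Hnrpu, a nuclear scaffold protein that binds chromatin and RNA, lay on opposite sides of control at the 2 ends of the gradient. Its signals were 3305, 3921 and 4563 in top, light and heavy fractions with Eif4g3 siRNA, against 2667, 3426 and 6436 with control siRNA. The siRNA sample was thus the higher in top and light fractions and the lower in heavy polysomes. The ratios were 0.31 ± 0.15, 0.19 ± 0.15 and -0.50 ± 0.15. Both probes had this form, with 0.45 and 0.17 in the top fraction and -0.34 and -0.65 in heavy polysomes. Hnrpu was the only one of 35 members with ratios past 2 spot errors on opposite sides of 0 in top and heavy fractions, as were 1.16% of all genes.

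**Figure D2:**
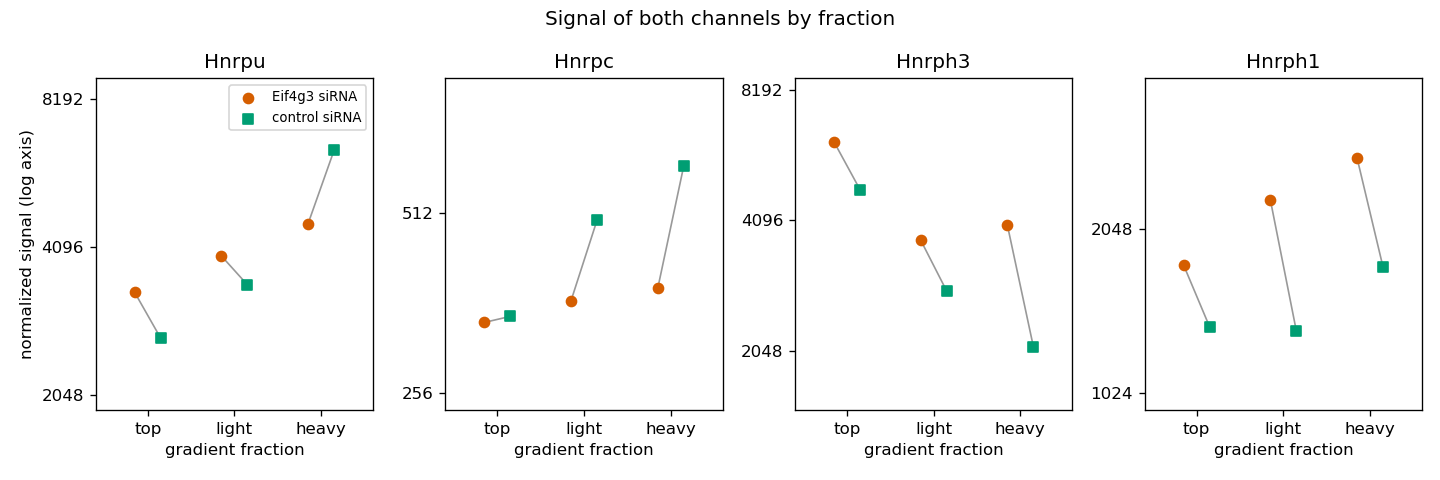
Normalized signal (log axis, a separate range for each gene) of Hnrpu, Hnrpc, Hnrph3 and Hnrph1 in the top, light and heavy fractions, Eif4g3 siRNA (circle, left) and control siRNA (square, right) joined by a line, 1 array per fraction. In heavy polysomes Hnrpu and Hnrpc were lower with Eif4g3 siRNA (4563 against 6436, and 383 against 613), and Hnrph3 and Hnrph1 were higher (3994 against 2096, and 2774 against 1746).

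The difference between the heavy and top ratios compares how the siRNA over control ratio sits at the 2 ends of the gradient, over the probes measured on both arrays. Its median was -0.19 for the 35 members, against 0.00 over all genes, and 10 of 35 lay above 0 (28.6%, against 49.9% of all genes). None passed 2-fold, which 0.811% of all genes did upward and 0.699% downward. The lowest were Hnrpu at -0.81 ± 0.21, Hnrpc at -0.64 ± 0.25, Sfrs16 at -0.46 ± 0.29 and Hnrpl (Hnrnpl), which binds CA-rich elements, at -0.44 ± 0.29. With other settings the value of Hnrpc lay between -0.85 and -0.38. The highest were Hnrph3 at 0.56 ± 0.31, Hnrpab at 0.37 ± 0.17, Sfrs3 at 0.35 ± 0.30 and Hnrph1 at 0.29 ± 0.30. By 2 or more spot errors, 3 members were lower, Hnrpa1 (-0.43 ± 0.17), Hnrpc and Hnrpu, and 1 was higher, Hnrpab, where 7.16% and 8.25% of all genes were.

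By protein group the shift was uneven. All 7 SR-related proteins were below 0, with a median of -0.28 and a range of -0.46 to -0.02. Of the 8 classical SR proteins 4 were below 0, with a median of -0.01. Of the 19 measured hnRNPs 14 were below 0, with a median of -0.21, including 5 of 7 in the A, B and D group and all 3 of the L and M group (Hnrpl, Hnrpll and Hnrpm). These groups were compared by counts only, without a test of their difference.

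**Figure D3:**
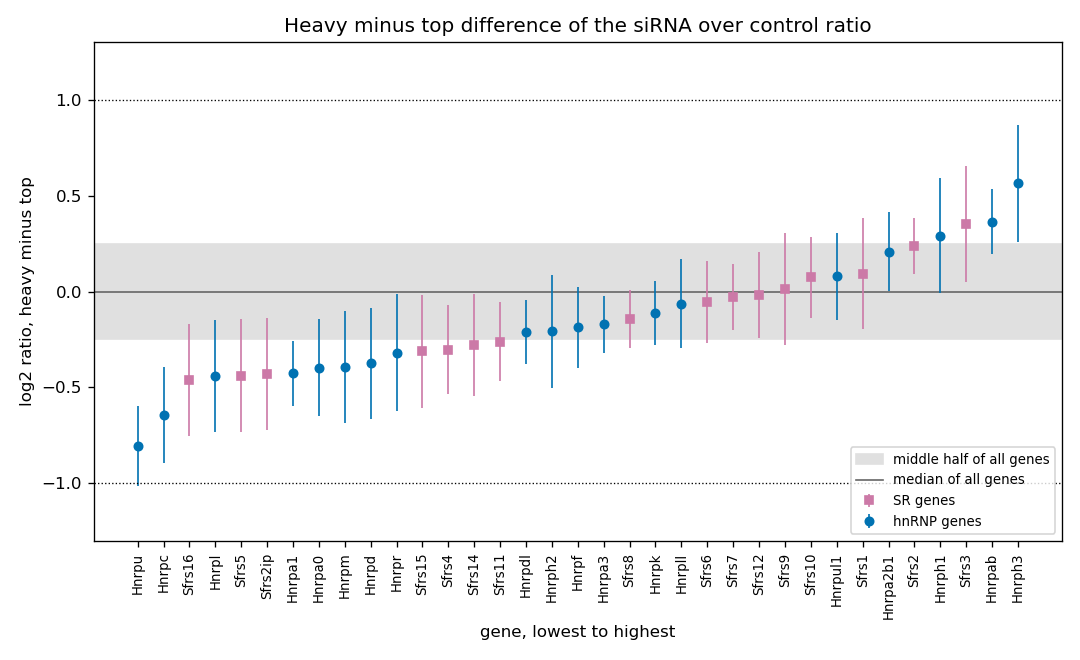
Heavy minus top difference of the log2 siRNA over control ratio (vertical axis) for the 35 genes in rising order, SR genes as squares and hnRNP genes as circles, with the combined spot error as bars. The grey band is the interquartile range of all genes and dotted lines mark 2-fold. Most points lie below 0, from Hnrpu at -0.81 to Hnrph3 at 0.56.

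Genes that modify or transport SR proteins, and other splicing regulators outside the 2 families, were given the same description. Of 19 kinase, phosphatase, methyltransferase, import and export genes on the array, 16 were measured in both fractions, 13 of them were below 0 in heavy minus top, and the median was -0.33. None passed 2-fold. Prmt1 and Prmt5, both arginine methyltransferases, were lowest at -0.67 ± 0.30 and -0.55 ± 0.29. Carm1, another arginine methyltransferase, was at -0.17 ± 0.22. Ppp1cc, a phosphatase subunit, and Dyrk1a, a kinase, were highest at 0.23 ± 0.21 and 0.12 ± 0.31.

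Of 62 other splicing regulators on the array, 55 were measured in both fractions, 39 were below 0, and the median was -0.23. Past 2-fold were 2 of them, both downward. Srrm2, a scaffold of nuclear speckles, was at -1.09 ± 0.30, with signals of 9394, 3549 and 2639 in top, light and heavy fractions with Eif4g3 siRNA against 8024, 4841 and 4792 with control siRNA. Taf15, an RNA-binding protein that is also a subunit of some TFIID complexes, was at -1.01 ± 0.31. That value rests on the probes measured on both arrays. Over all probes measured on each array, the ratios of Taf15 were -0.005 in the top fraction and -0.49 in heavy polysomes, which lie closer together. The highest were Raly, an hnRNP C relative, at 0.81 ± 0.29 and Tia1, a U-rich RNA binder, at 0.59 ± 0.24. The 12 fibroblastic markers measured in both fractions had a median of -0.37, with 8 below 0 and none past 2-fold, so a median below 0 was also found outside the splicing regulators. Whether these lists share a cause was not tested.

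In control siRNA cells the green channel shows how each mRNA stood among the RNA of each fraction without the knockdown. The amount of labelled RNA was 200 ng for every fraction, so a value is relative to the other RNA of its fraction. It does not give how the copies of an mRNA were spread over the gradient. After normalization between arrays, the heavy over top log2 signal had a median of 0.35 for the members and of -0.11 for all genes. Of 35 members 8 were at least 2-fold higher in heavy polysomes and 3 at least 2-fold lower, where 14.5% and 21.2% of all genes were. All 8 were hnRNPs, and the classical SR gene Sfrs6 lay just under the threshold at 0.98 and reached 1.42 with median centring. The scaling between arrays mattered: with each array's 75th percentile as the scale the counts were 2 higher and 6 lower, and with median centring alone 13 higher and 2 lower. The members' median nevertheless stood above that of all genes by 0.49 and 0.63 with these scalings.

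Hnrpr (Hnrnpr), which binds mRNA in neurons and other cells, had the largest heavy over top signal, with control signals of 344, 700 and 1435 in top, light and heavy fractions. Its log2 value was 2.06, or 4.18-fold, and lay between 1.03 and 2.37 under the other settings. Hnrpll (Hnrnpll), a regulator of Ptprc splicing in T cells, was at 1.73, Hnrpu at 1.27 and Hnrpa2b1 at 1.26. The others past 2-fold were Hnrph2, Hnrpab, Hnrpm and Hnrpd, at 1.24, 1.20, 1.18 and 1.16. Hnrpab came to 0.07 with the 75th percentile scale.

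At the other end, Sfrs10 was at -1.29, Hnrph3 at -1.20, Hnrpdl (Hnrnpdl) at -1.07 and Hnrpl at -0.69. With other settings Sfrs10 lay between -2.19 and -1.05, Hnrph3 between -1.83 and -0.58, Hnrpdl between -1.53 and -0.61 and Hnrpl between -1.14 and -0.03. Of the 3 members past 2-fold, Sfrs10 alone stayed past it in every setting. Its value is the mean of 2 probes on opposite sides of 0, at 1.52 and -4.09. No setting took these probes apart, so the range does not show that the gene as a whole was low in heavy polysomes. Hnrph3 had control signals of 4819, 2815 and 2096 in top, light and heavy fractions, falling along the gradient. By group, the median of this difference was 0.65 for the hnRNPs, 0.35 for the classical SR proteins and -0.40 for the SR-related proteins. These medians rest on gene means over probes at different positions. In the SR-related Sfrs11, Sfrs8, Sfrs12 and Sfrs14 the most 3′ probe was at 0.55, 0.23, -0.12 and -0.09. Their most upstream measured probe was at -1.49, -1.80, -0.91 and -0.61. Protein group and probe position were not taken apart here. Between heavy and light polysomes 4 members were 2-fold higher and none lower, where 3.38% and 4.92% of all genes were, and between light polysomes and the top fraction 1 was higher and 2 were lower, where 6.1% and 11.3% were.

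**Figure D4:**
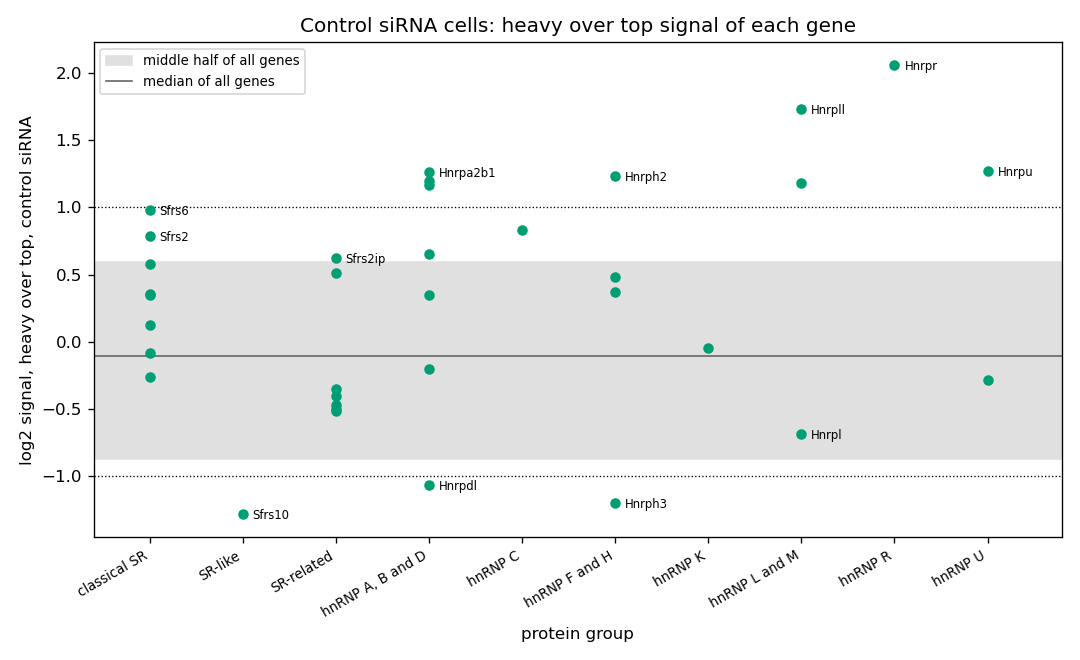
Log2 signal in heavy polysomes over the top fraction in control siRNA cells (vertical axis) for the 35 genes by protein group, 1 point per gene, after normalization between arrays. The grey band is the interquartile range of all genes, the grey line their median of -0.11, and dotted lines mark 2-fold. Points above 1 are all hnRNPs, with Sfrs6 just under at 0.98, Hnrpr highest at 2.06 and Sfrs10 lowest at -1.29. The Sfrs10 point is the mean of 2 probes, at 1.52 and -4.09.

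Probes of 1 gene did not always agree. Among members with at least 2 measured probes, the siRNA over control ratios of the probes differed by more than 1 in none of 21 in the top fraction, in 4 of 22 in light polysomes (Hnrpa3, Sfrs8, Sfrs10 and Sfrs11) and in 2 of 23 in heavy polysomes (Hnrpa3 and Sfrs8), where 0.507%, 1.85% and 1.44% of all such genes did. The difference is that between the highest and lowest probe of a gene, which can only grow with more probes. Hnrpa3 and Sfrs8 had 4 measured probes each, and the genes behind these shares were not matched for probe number or spacing. Gene means of the members named hide such differences. The result for the top fraction depends on the processing, since the offset pulls dim spots towards 0, most on that array. With the scanner software's own ratio the Hnrpa3 probes lay between -1.07 and 0.38 in the top fraction, over 1 apart.

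In the control heavy over top signal the probes of Sfrs10 differed more than those of any other member. Its 3′ probe at chr16:22161559-22161618 (mm8, minus strand) had control signals of 653, 1378 and 1869 in top, light and heavy fractions, and its other probe at chr16:22174323-22174382, 12764 bases upstream, had 1775, 422 and 104. The heavy over top log2 signals were 1.52 for the 3′ probe and -4.09 for the upstream probe, so that the upstream signal was 17.1-fold lower in heavy polysomes than in the top fraction. A gap of more than 3 between probes on this measure was found in 1 of 21 members and in 3.02% of all such genes. With Eif4g3 siRNA the upstream probe had signals of 2599, 306 and 141 and the 3′ probe 676, 2027 and 2321. Their ratios were 0.55, -0.46 and 0.44 upstream and 0.05, 0.56 and 0.31 at the 3′ end. Whether the upstream probe lies in an exon or an intron could not be read here, as the table of genes given is on another build than mm8.

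Hnrpa3 (Hnrnpa3), a relative of hnRNP A1, had 4 probes. The most 3′ probe was at -0.45, -0.63 and -0.91 in top, light and heavy fractions, and the other 3 lay between -0.11 and 0.51. With the scanner software's own ratio the most 3′ probe was at -1.07, -0.71 and -0.96. Its value was then lowest in the top fraction, so the fall along the gradient depends on the processing. Sfrs8 (Sfswap), the homologue of the fly splicing regulator suppressor of white apricot, had its most upstream probe 68334 bases from the 3′ probe. That probe was at 0.66, 0.40 and 1.01, past 2-fold in heavy polysomes, with signals of 1355, 630 and 492 with Eif4g3 siRNA against 856, 479 and 245 with control siRNA. The most 3′ probe was at 0.01, 0.10 and 0.02. The probe 16931 bases from the most 3′ probe was at 0.39, -0.78 and -0.28. In Sfrs11 (Srsf11), which is found with spliceosomal proteins, the upstream probe was at -0.60 in light polysomes and the 3′ probe at 0.56.

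Upstream and 3′ probes were also compared in the control channel. Over the 17 members with measured probes at least 1000 bases apart, the most upstream probe had a lower heavy over top signal than the most 3′ probe in 13, with a median difference of -0.79. Over all 1904 such genes it was lower in 61.2%, with a median difference of -0.33. The difference reached -1 or lower in 7 of the 17 members and in 30.5% of all genes. These 7 were Sfrs10 (-5.61), Hnrpa3 (-2.29), Sfrs11 (-2.04), Sfrs8 (-2.03), Hnrpk (-1.80), Hnrpf (-1.38) and Hnrpa2b1 (-1.18). It was above 1 in 3 members, Sfrs6 (1.25), Hnrpa1 (1.05) and Hnrpab (1.02). Between heavy and light polysomes the upstream probe was the lower in 10 of 18 members and in 54.0% of 3621 genes. Hnrpk (Hnrnpk), a poly(C)-binding protein, had control signals of 601, 228 and 254 at its upstream probe and of 7160, 7889 and 10519 at its most 3′ probe. In the siRNA over control ratio the same comparison had a median of -0.09 for heavy minus top in the 17 members and of 0.01 over 1765 genes.

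**Figure D5:**
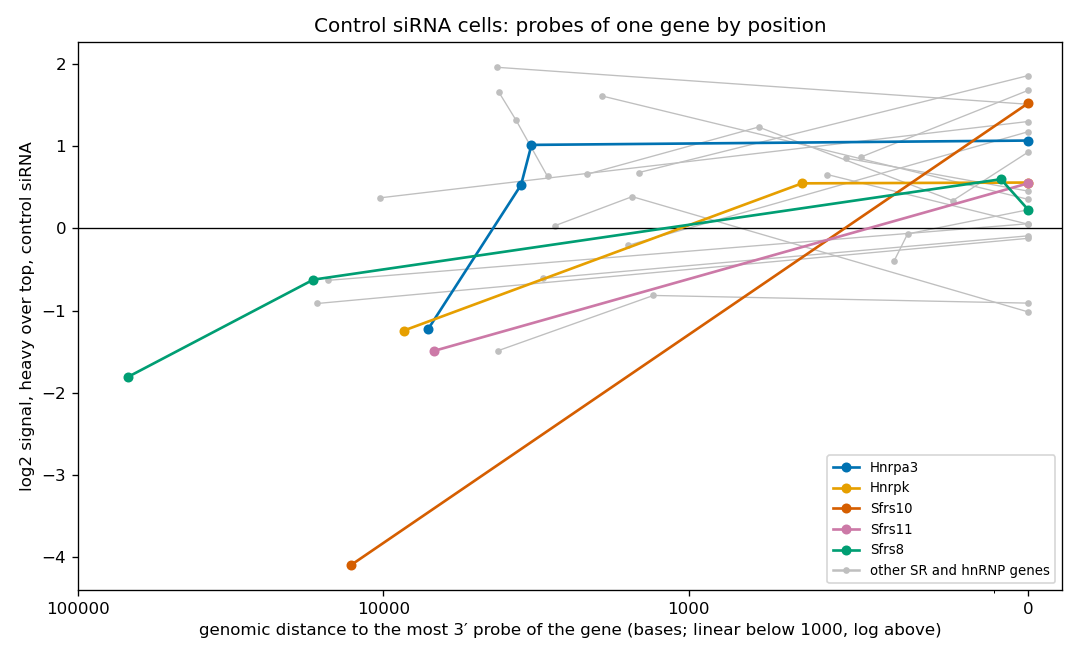
Log2 signal in heavy polysomes over the top fraction in control siRNA cells (vertical axis) for single probes of 21 SR and hnRNP genes, against the distance in bases to the gene's most 3′ probe (horizontal axis, most 3′ probe at the right, linear below 1000 and log above). Lines join probes of 1 gene, and 5 genes are coloured. The 5 coloured genes are those with the lowest upstream minus 3′ differences, so their direction follows from the choice. Sfrs10 has the largest, at -4.09 against 1.52. Among the grey genes Sfrs6, Hnrpa1 and Hnrpab lie higher at the upstream probe.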

How the data were processed

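Values came from 3 two-colour arrays, 1 per fraction. Intensity on a linear scale for each channel of a spot was read from the deposited scanner files (Agilent Feature Extraction version 10.5.1.1, per the file headers). These deposited files also give the software's log10 ratio of red over green with its error, and flags for background, outliers and saturation. Log2 ratios in the authors' deposited table were the same ratio on another base for all measured probes with 1 spot (largest difference 3.5e-06). Column medians of that table were -0.09, -0.01 and 0.22 for top, light and heavy arrays, so its scale, direction and centring are those of the software's ratio. The build of probe coordinates is mm8.

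Ratios were computed with limma 3.58.1 (R 4.3.3): normexp background correction with an offset of 50, then loess fitted without control spots. The offset pulls dim spots towards 0, and the slope on the software's ratios was 0.571, 0.718 and 0.721. Outlier spots (220, 170 and 183) were left out; saturation marks occurred on no spot. Measured probes are those well above background in both channels, and measured probes were averaged per gene on the log2 scale, signals too. Heavy minus top uses probes measured on both arrays, and the control channel those with green well above background on both. Signals were set between arrays by Aquantile. The error is the software's, made for its own ratio, combined over probes. Repeated spots had a median SD of 0.05, 0.05 and 0.09, and probes of a gene of 0.11, 0.16 and 0.15. The threshold was 2-fold. With 1 array per fraction no p-value was computed, and the precision is limited by that number.

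Members and lists were chosen with earlier results of these data known. Named with values are the 4 highest and 4 lowest members per array, of heavy minus top and of the control channel heavy over top, members whose probes differ by over 1, and the 2 highest and 2 lowest of each companion list. Further members were named after their values were seen, as the role groups required, and the error counts, the 0.3 level, the control probe gap of 3, the upstream probe comparison and the transcript starts were also set after seeing the data. The steps were tested on simulated arrays. Background, loess, filter, probe rule and scaling alternatives are given in the closing section.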

Additional observations from a re-analysis of the deposited data

Results flagged for a closer look

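For Hnrpu the heavy minus top difference was -0.81, with the Eif4g3 siRNA sample above control in the top fraction (0.31 ± 0.15) and below it in heavy polysomes (-0.50 ± 0.15), opposite directions in the 2 fractions. The difference was not tested, since each fraction was 1 array. Over the 7 alternative settings it lay between -0.93 and -0.78. The same pattern of opposite directions, each past 2 spot errors, was found in 1.16% of all genes measured in both fractions.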

How the results depend on the processing

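No paired analysis was possible because each fraction was 1 array, with no further replicate of either siRNA. Alternatives were run for the members' medians and counts and for 23 single members, and among these no value past 2-fold turned its sign. The other members, companion genes, Eif4g1, Eif4g2, Eif4g3 and single probes were not run under them one by one. For single probes of Hnrpc and Hnrpa3 the software's own ratios are given above. The members' median in heavy minus top lay between -0.29 and -0.12 over 7 settings, that of heavy polysomes between -0.15 and -0.06, and no setting brought a member to 2-fold in heavy minus top. Without loess 1 member passed 2-fold upward in light polysomes (Hnrph1), and with the software's ratio 1 in heavy polysomes (Hnrph3).

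The control channel depended on the scaling between arrays. For heavy over top, the 75th percentile scale gave a median of 0.064 with 2 members higher and 6 lower (all genes at -0.42), and median centring 0.60 with 13 higher. For light over top, median centring gave a median of 0.20 with 4 higher, the 75th percentile scale 2 higher and 5 lower, no background filter 0 higher and 1 lower, and normexp offset 0 gave 2 higher. For heavy over light, the 75th percentile scale gave 1 higher and 1 lower, median centring 2 higher and 1 lower, and offset 0 gave 1 lower. Of 161 single-gene values, 41 lay on the other side of 0 under at least 1 setting. Offset and dim spots limit the top array most.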
